A study of Mus musculus with 6 samples.

Results

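Activator protein 1 (AP-1) is a family of transcription factors, and 10 of its genes are described here: Jun, Junb and Jund of the JUN family, Fos, Fosb, Fosl1 and Fosl2 of the FOS family, and Atf3, Maff and Batf3. They were taken by gene name from the 54532 genes of the count table, and each name matched 1 gene. RNA was sequenced from MB49 cells, a line of bladder carcinoma of male mouse origin, in 2 groups of 3 libraries. All 6 libraries were treated as 1 batch, and their titles and library names give none. Y-Scr cells carried a guide RNA with no target, and Y-KO is labelled as a CRISPR knockout of Y, both in Y-positive MB49 cells. No source used here names the guide of Y-KO. The same text on sorting by a red fluorescent protein and on growth from single cells stands on all 6 libraries. Whether the 3 libraries of a group were separate cultures or clones is not stated, so the p-values measure only the spread between these libraries, which may be technical.

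AP-1 factors bind DNA as pairs held together by a leucine zipper beside a basic region that contacts the DNA. JUN proteins can pair with each other or with FOS proteins, while FOS proteins need a JUN or another partner. The pairs bind the sequence TGACTCA, and pairs with ATF or CREB proteins favour TGACGTCA. MAP kinase signals switch on Fos, Junb and other members within minutes as immediate early genes, and AP-1 then drives genes of proliferation, invasion and inflammation. Small MAF proteins such as MAFF lack an activation domain.

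The libraries held 15698510 to 24633158 counts, and a floor of 3 counts stood at 0.125 to 0.190 CPM, the count relative to a library size scaled by edgeR's TMM method. The 8 listed Y-linked genes held 22778 counts in Y-Scr against 0 in Y-KO. Of the 16 urothelial and epithelial markers, Krt8 and Krt18 carried most counts, and Epcam, Cdh1, Krt20 and Upk3a had 0 counts in all 6 libraries. The sum of these 16 was 3360 to 3729 CPM in Y-Scr against 4021 to 4328 in Y-KO, without overlap. Of 10 leukocyte markers, Ptprc, Itgam, Cd3e and Csf3r were among those with 0 counts, and the list's sum, mostly Cd68, was 114.5 to 123.1 CPM in Y-Scr against 98.3 to 106.4 in Y-KO. The sums of 7 fibroblast markers were 11.6 to 15.9 and 17.8 to 20.1 CPM, and those of 5 endothelial markers 0.544 to 0.752 and 0.560 to 0.859.

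The DNA just before a start that RefSeq gives for the gene is shown for members that were lower in Y-KO. It was chosen because AP-1 genes are known to be regulated through sites of the AP-1 and CREB type in this stretch. Windows of 250 bases before to 50 after the start came from RefSeq (GRCm38.p6), written 5′ to 3′ on the gene's strand. RefSeq held 11 windows for 9 members, and Fosl1 was not matched. Capitals mark TGACTCA, TGACGTCA, TGACATCA and TGACG on either strand. TGACG is also part of TGACGTCA.

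Jun (chr4:95052173-95052472, minus strand): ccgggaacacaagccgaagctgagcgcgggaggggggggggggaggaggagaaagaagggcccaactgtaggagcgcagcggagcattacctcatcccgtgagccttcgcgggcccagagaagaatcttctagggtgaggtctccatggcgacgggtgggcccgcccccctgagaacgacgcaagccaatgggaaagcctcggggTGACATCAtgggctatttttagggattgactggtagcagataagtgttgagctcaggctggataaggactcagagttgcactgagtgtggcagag

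Junb (chr8:84978699-84978998, minus strand): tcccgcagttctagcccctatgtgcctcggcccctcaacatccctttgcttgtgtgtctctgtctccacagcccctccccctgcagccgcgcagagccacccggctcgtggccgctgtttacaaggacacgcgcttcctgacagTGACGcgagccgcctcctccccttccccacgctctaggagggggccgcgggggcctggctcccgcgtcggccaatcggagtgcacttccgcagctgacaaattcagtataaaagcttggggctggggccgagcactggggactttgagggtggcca

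Fos (chr12:85473640-85473939, plus strand): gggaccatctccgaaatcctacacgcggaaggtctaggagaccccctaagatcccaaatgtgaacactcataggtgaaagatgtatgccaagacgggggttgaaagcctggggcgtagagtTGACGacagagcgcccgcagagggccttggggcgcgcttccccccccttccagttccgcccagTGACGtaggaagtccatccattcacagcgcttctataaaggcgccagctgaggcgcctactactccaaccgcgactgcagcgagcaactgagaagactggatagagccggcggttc

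Maff (chr15:79347270-79347569, plus strand, 1 of 3 windows): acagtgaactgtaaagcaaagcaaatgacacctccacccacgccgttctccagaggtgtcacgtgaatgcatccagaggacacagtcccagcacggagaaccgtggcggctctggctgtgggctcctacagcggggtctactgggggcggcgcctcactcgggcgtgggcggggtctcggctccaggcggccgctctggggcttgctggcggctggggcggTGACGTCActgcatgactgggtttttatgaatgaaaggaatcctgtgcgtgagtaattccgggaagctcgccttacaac

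Jun held TGACATCA, a variant of the CREB-type sequence, beginning 45 bases before the start. Maff held the full TGACGTCA, beginning 29 bases before the start in the printed window, and TGACATCA 45 bases before the start in another. Fos held TGACG 129 and 66 bases before the start, and Junb held it 106 bases before. So did Fosb, 60 bases before, and Atf3, 7 bases before. TGACG was thus present also in members that did not pass or were not tested. The Maff window with TGACATCA held it too, 122 bases before the start. TGACG was present in 20.8% of the 32851 mouse windows of this length, TGACTCA in 5.20%, TGACATCA in 3.62% and TGACGTCA in 1.79%. No window of a matched member held TGACTCA or a CArG box, the site of serum response factor, which 1.63% of all windows held. DNA outside the windows was not searched, so motifs farther from the start of a gene would not be seen. A kB site, the motif of NF-kB, matched in windows of Fos, Fosb, Fosl2 and Maff and in 4.51% of all windows. The window of Batf3 held none of these motifs, nor did that of Maff at the start of its counted gene (chr15:79346371-79346670). That of Jund (chr8:70697489-70697788) held none either, but it ends before the counted gene begins (70698949) and so is not the DNA next to that start. The windows of Atf3, Batf3 and Fosl2 and the Maff windows with matches lie inside the counted genes, past their starts. Matches are letters in these windows and not shown to be sites in use.

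Of the 10 members, 8 had enough counts to be tested, and 5 of these were lower in Y-KO: Fos, Junb, Maff, Fosl1 and Jun. No member was higher, with 0 also at an unadjusted p under 0.05 and 0 in the DESeq2 and limma-voom tests. Jund, Fosb and Fosl2 did not pass the threshold, an adjusted p under 0.05 in edgeR's quasi-likelihood test over all 12907 tested genes. Of all tested genes, 43.6% passed, 23.0% as lower and 20.7% as higher. The CPM of the groups did not overlap for 5 of the 8 tested members and for 52.9% of all tested genes. With bulk RNA, fewer cells expressing a gene and less RNA per cell cannot be told apart.

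**Figure D1:**
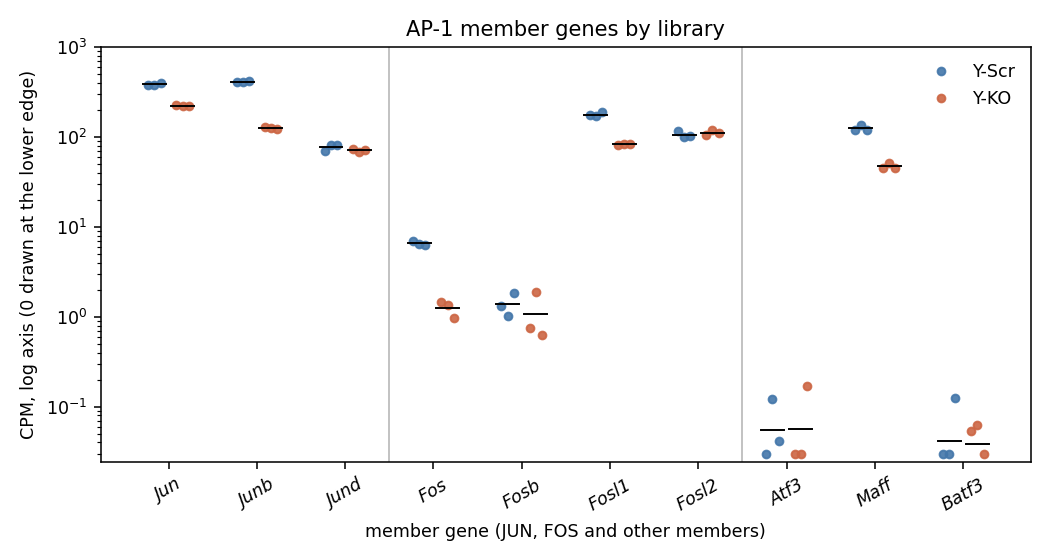
CPM (log axis) of the 10 members in each library, 3 Y-Scr and 3 Y-KO points per gene with the group mean as a black line; points at 0 are drawn at the lower edge. Junb, Jun, Fosl1, Maff and Fos separate by group, Jund, Fosl2 and Fosb overlap, and Atf3 and Batf3 lie below 0.2 CPM.

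Junb, which encodes the JUN protein often described as a restraint on c-JUN, had the largest fall of the JUN family. Its CPM was 414.2, 412.7 and 417.9 in Y-Scr and 129.8, 127.8 and 122.9 in Y-KO. The Y-KO libraries all lay below the Y-Scr libraries, and the spread within each group was small beside the gap. Junb (ENSMUSG00000052837, chromosome 8, 84974484 to 84978718, GRCm38) fell 3.27-fold, by 1.71 ± 0.06 log2 units (SE), with an adjusted p of 3.2e-14 in edgeR's quasi-likelihood test. Prdx2 overlaps 351 bases of its locus on the other strand, and no source used here states whether reads were counted by strand. Prdx2 itself stood at 274.7 ± 16.1 CPM in Y-Scr against 218.7 ± 4.90 in Y-KO (SD, n = 3).

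Jun encodes c-JUN, the founding member and a target of the JNK kinases. Its CPM was 381.9, 383.0 and 405.7 in Y-Scr and 226.2, 220.4 and 219.8 in Y-KO, again without overlap. Jun (ENSMUSG00000052684, chromosome 4, 95049034 to 95052222) fell 1.76-fold, by 0.81 ± 0.06 log2 units (SE), with an adjusted p of 2.4e-09 in edgeR's quasi-likelihood test. The 95% intervals of the log2 changes of Jun (-0.94 to -0.69) and Junb (-1.84 to -1.58) did not overlap. The difference between the genes was not itself tested. Junos, an antisense gene that overlaps 689 bases of Jun on the other strand, had 100, 107 and 153 counts in Y-Scr against 57, 73 and 51 in Y-KO. Jun itself had 22079 counts in Y-Scr against 11633 in Y-KO.

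Jund encodes the JUN protein that many resting cells also make. Its CPM was 70.8, 81.7 and 81.4 in Y-Scr and 73.5, 68.5 and 72.2 in Y-KO, and the groups overlapped because Y-Scr 1 lay within the range of Y-KO. The log2 change of Jund was -0.13 ± 0.08 (SE), with a 95% interval of -0.29 to 0.03 (adjusted p = 0.183 in edgeR's quasi-likelihood test). That interval leaves room for a small fall and not for one of the size seen in Jun. Jund is short and GC-rich (1668 bases and 67.2% GC, against medians of 4000 bases and 49.6% over tested genes). With each library's trend on length and GC content removed, Jund stood at -0.26 (adjusted p = 0.00281) and passed. It also passed without Y-Scr 1 (-0.18, adjusted p = 0.0459).

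Among the FOS members, Fosl1 had the highest level per gene length (TPM) in both groups. Fosl1 encodes FRA-1, a FOS protein that lacks the strong activation domain of c-FOS and is known from invasive carcinoma cells. Its CPM was 174.9, 171.4 and 189.0 in Y-Scr and 81.0, 84.8 and 84.1 in Y-KO, with every Y-KO library below every Y-Scr library. Fosl1 (ENSMUSG00000024912, chromosome 19, 5447703 to 5455945 as deposited) fell 2.14-fold, by 1.10 ± 0.06 log2 units (SE), with an adjusted p of 5.9e-11 in edgeR's quasi-likelihood test.

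Fos, which encodes the short-lived immediate early factor c-FOS, was scarce and had the largest log2 fall among the members. It had 111, 107 and 152 counts in Y-Scr against 27, 22 and 17 in Y-KO, or 7.02, 6.47 and 6.35 CPM against 1.45, 1.37 and 0.963. The groups did not overlap. Fos (ENSMUSG00000021250, chromosome 12, 85473890 to 85477273) fell 5.22-fold, by 2.38 ± 0.24 log2 units (SE), with an adjusted p of 2.3e-07 in edgeR's quasi-likelihood test. Its 95% interval of -2.89 to -1.88 is wide beside those of Jun and Junb.

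Fosl2, which encodes FRA-2, did not pass in either direction. Its CPM was 118.6, 100.2 and 102.1 in Y-Scr and 105.2, 118.9 and 111.9 in Y-KO, with overlap. The log2 change of Fosl2 was 0.07 ± 0.07 (SE), with a 95% interval of -0.09 to 0.22 (adjusted p = 0.499 in edgeR's quasi-likelihood test). Fosl2 is the longest member at 9680 bases. Once the length and GC trend was removed it stood at -0.20 (adjusted p = 0.00793 in edgeR's quasi-likelihood test). Its direction thus depends on that choice. With the trend removed 7 of 8 tested members were lower, as were 2936 of all 12907 tested genes.

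Fosb, another immediate early FOS gene, had 21, 17 and 44 counts in Y-Scr against 14, 30 and 11 in Y-KO. Y-KO 2 was the highest library by CPM (1.87) and Y-KO 3 the lowest (0.623), so the groups overlapped over their whole range. The log2 change of Fosb was -0.41 ± 0.44 (SE), with a 95% interval of -1.33 to 0.50 (adjusted p = 0.477 in edgeR's quasi-likelihood test). At this depth a fall as large as that of Jun or Fosl1 could not be told from none.

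Maff, a small MAF gene whose protein pairs with FOS, NRF and BACH proteins, had a CPM of 120.1, 138.2 and 118.9 in Y-Scr and 45.8, 51.6 and 45.4 in Y-KO. All Y-KO libraries lay below all Y-Scr libraries. Maff (ENSMUSG00000042622, chromosome 15, 79346621 to 79359076) fell 2.64-fold, by 1.40 ± 0.08 log2 units (SE), with an adjusted p of 3.6e-11 in edgeR's quasi-likelihood test.

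Atf3, a stress-induced gene of the ATF family, was barely detected. It had 0, 2 and 1 counts in Y-Scr against 0, 0 and 3 in Y-KO. Batf3, known from dendritic cell development, had 0, 0 and 3 counts in Y-Scr against 1, 1 and 0 in Y-KO. Both were below the expression filter, and at 3 counts or fewer per group no fold is given. The ATF side of the comparison with the JUN and FOS members therefore has no measured change at this depth.

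**Figure D2:**
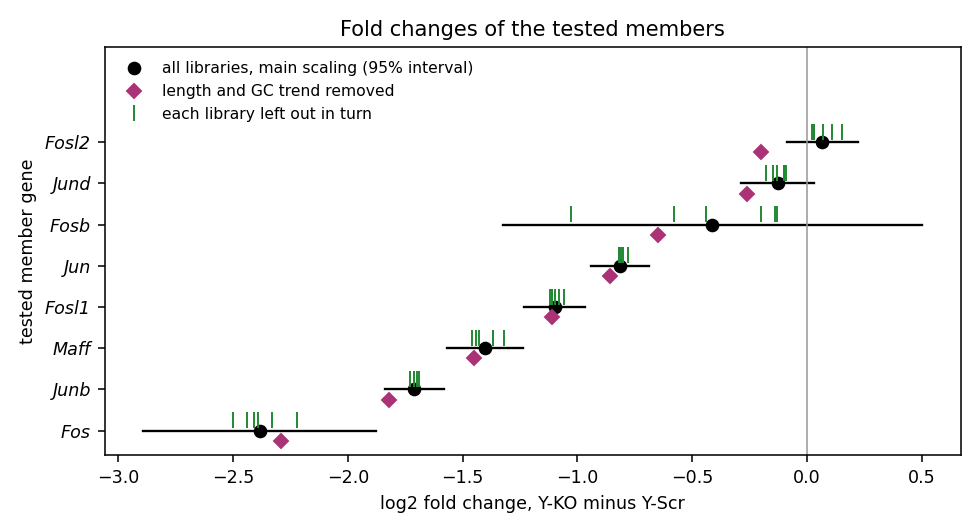
Log2 fold change (Y-KO minus Y-Scr) of the 8 tested members, with black points and 95% intervals from the fit on all 6 libraries, diamonds with the length and GC trend removed, and green ticks with each library left out in turn. Fos, Junb, Maff, Fosl1 and Jun stay below -0.7 in every version, while Fosl2 lies at 0.07 and moves to -0.20 once the trend is removed.

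To set members beside each other, levels were expressed per length as TPM, which divides counts by gene length and then by the library's total. In Y-Scr the order was Junb (459.7 ± 15.2 TPM, SD, n = 3), Jun (311.8 ± 9.79), Fosl1 (266.4 ± 13.3), Maff (123.5 ± 9.48), Jund (119 ± 5.60), Fosl2 (28.2 ± 3.69), Fos (7.18 ± 0.641) and Fosb (0.570 ± 0.162), with the means of Atf3 and Batf3 under 0.1. Maff and Jund were neighbours whose libraries overlapped. In Y-KO the order was Jun (197 ± 1.83), Junb (155.9 ± 3.39), Fosl1 (138.1 ± 4.19), Jund (121 ± 4.13), Maff (51.9 ± 3.83), Fosl2 (32.7 ± 2.14), Fos (1.52 ± 0.306) and Fosb (0.490 ± 0.311). Jun had taken the place of Junb at the top, and Jund stood above Maff. The summed TPM of the 10 members was 1342, 1290 and 1318 in Y-Scr and 696.7, 703.9 and 695.9 in Y-KO.

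The make-up of the JUN family shifted away from Junb. Junb held 52.6%, 51.5% and 50.8% of the family's TPM in Y-Scr and 32.9%, 33.5% and 32.3% in Y-KO. Jun went from 35.0% ± 0.552 to 41.6% ± 0.170 (SD, n = 3), and Jund from 13.4% ± 0.861 to 25.5% ± 0.694. Jun itself passed as lower, and Jund did not pass. The mean level of Jund was 119 TPM in Y-Scr and 121 in Y-KO. TPM was not scaled by TMM, and on the TMM-scaled CPM the means of Jund were 78.0 and 71.4. These shares describe the libraries and were not tested.

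In the FOS family the share of Fosl1 was 86.9%, 88.3% and 89.1% in Y-Scr and 80.3%, 79.1% and 80.3% in Y-KO. Fosl2 went from 9.33% ± 0.974 to 18.9% ± 0.569 (SD, n = 3), and Fos from 2.37% ± 0.184 to 0.879% ± 0.192. Both family sums were lower in every Y-KO library. The JUN sum was 890.5 ± 17.7 TPM in Y-Scr and 474 ± 6.33 in Y-KO, and the FOS sum 302.4 ± 15.6 and 172.8 ± 6.30. The ratio of the JUN sum to the FOS sum was 2.90, 3.07 and 2.88 in Y-Scr and 2.90, 2.64 and 2.70 in Y-KO, with overlap. On counts not divided by gene length, a scale added after the data were seen, this ratio was 2.87, 3.14 and 3.02 in Y-Scr and 2.28, 2.01 and 2.10 in Y-KO, without overlap. The balance between the families therefore depends on the scale. On that scale Fosl2 held 36.4% ± 2.64 of the FOS family in Y-Scr and 56.7% ± 0.800 in Y-KO (SD, n = 3), more than Fosl1 in Y-KO.

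**Figure D3:**
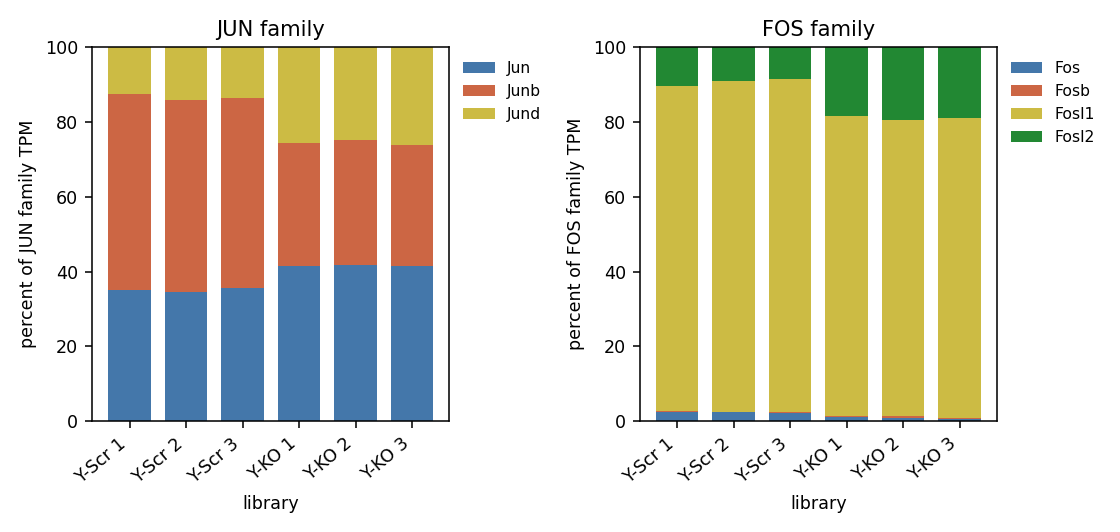
Percent of the summed TPM of the JUN family (left) and the FOS family (right) held by each gene, 1 stacked bar per library. The Junb part is about 51% to 53% in the Y-Scr bars and 32% to 34% in the Y-KO bars, and the Fosl2 part is 8% to 10% against 18% to 20%.

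The other AP-1 and small MAF relatives did not move together. Of 17 listed, 12 were tested: 5 were lower and 3 higher, with a median log2 change of -0.04, beside -0.01 for all tested genes. Of all tested genes 23.0% were lower and 20.7% higher. Creb5, an ATF2-like partner of JUN, stood at 40.2, 39.1 and 39.9 CPM in Y-Scr against 19.1, 24.3 and 19.7 in Y-KO and fell by 0.92 ± 0.10 log2 units (SE), with an adjusted p of 5.8e-07 in edgeR's quasi-likelihood test. The small MAF gene Mafk fell by 0.46 ± 0.07, while Mafg, the third of that group, stood at -0.08 ± 0.06 and passed as lower only with the length and GC trend removed (-0.26). Bach1 (-0.29), Nfe2l2 (-0.21) and Nfe2l1 (-0.19), which encode partners of small MAF proteins, were also lower. Leaving out Y-KO 1 ended all 3 of these calls (-0.24, -0.19 and -0.17), leaving out Y-KO 3 or adding a replicate block ended that of Nfe2l1 (-0.18 and -0.19), and removing the trend ended that of Nfe2l2 (-0.13).

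Batf, which encodes a JUN partner known from lymphocytes, had 0, 1 and 0 counts in Y-Scr against 17, 14 and 24 in Y-KO. The ratio of Y-KO to Y-Scr was 59.1 (exact 95% interval 10.2 to 2378, counting error only), and Batf passed as higher (adjusted p = 6.1e-05 in edgeR's quasi-likelihood test). At 1.05 ± 0.271 CPM in Y-KO (SD, n = 3) it remained scarce. Only its Y-KO counts took it past the expression filter, and with at least 1 CPM required in 3 libraries it was not tested. The list's median was the same with Batf at the lower end of that interval. It could not have moved, because Batf was still the highest of the list there. The B cell marker Cd79a, picked from the leukocyte list after its values were seen, had 1 count in Y-Scr and 9 in Y-KO, while Ptprc had 0. Of the 3 leukocyte markers tested, 2 were lower and 0 higher (23.0% and 20.7% over all tested genes), with a median log2 change of -0.56. Their part in the rise of Batf was not tested. Mafa, a large MAF gene, rose by 1.41 ± 0.29 (SE) on the log2 scale, from 1.27 ± 0.0636 to 3.40 ± 0.368 CPM.

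Atf7, whose product pairs with JUN, passed as higher at 0.28 ± 0.10 (SE), although its libraries overlapped between the groups. It lost that call without Y-Scr 2 (0.24), Y-Scr 3 (0.21) or Y-KO 2 (0.19), with a replicate block (0.28) and with the trend removed (0.10). Its paralogue Atf2 stood at 0.21 ± 0.08 and passed without Y-Scr 1 (0.28), with other scaling factors (0.21 and 0.22) and with the trend removed (0.22). Jdp2, which encodes a repressor that pairs with JUN, stood at -0.01 ± 0.09, and Maf at 0.02 ± 0.21. Among all 27 tested genes that the authors' deposited table calls bZIP factors and that are not members, 13 were lower and 6 higher, with a median of -0.08. Over all tested genes 23.0% were lower and 20.7% higher, with a median of -0.01.

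Most kinase genes upstream of AP-1 did not pass, which was also so for most tested genes (20.7% higher and 23.0% lower of all). Of 23 tested genes of the MAP kinase route, 4 were higher, 2 lower and 17 did not pass, with a median log2 change of 0.05. Map2k6, which encodes an activator of p38, had 33, 35 and 59 counts in Y-Scr against 10, 9 and 4 in Y-KO and fell by 2.33 ± 0.41 log2 units (SE), with an adjusted p of 0.000159 in edgeR's quasi-likelihood test. Mapk14, the gene of p38 alpha, rose by 0.39 ± 0.07, Map3k1, an activator of the JNK branch, by 0.71 ± 0.12, and Rps6ka1, a kinase gene of the ERK branch, by 0.51 ± 0.10. Mapk7, which encodes ERK5, rose by 0.33 ± 0.09 and lost its call with the trend removed (0.17). Mapk3, which encodes ERK1, fell by 0.15 ± 0.06 with an adjusted p of 0.0452, and the call was lost when any of the 6 libraries was left out (-0.16 to -0.13).

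Transcription factors that act on immediate early promoters showed small changes of either sign. Of 10 genes of the serum response factor and ternary complex list, 9 were tested, 3 as higher and 1 as lower, with a median of 0.20. Over all tested genes 20.7% were higher and 23.0% lower, with a median of -0.01. Mkl2, a coactivator gene of serum response factor, rose by 0.53 ± 0.10 (SE), from 27.4 ± 3.85 to 39.4 ± 1.36 CPM. Mkl1 (0.27 ± 0.09) and Mef2d (0.20 ± 0.07) were also higher, and with the trend removed they stood at -0.01 and -0.00. Mkl1 lost its call without Y-KO 3 (0.25), and Mef2d without Y-Scr 2 (0.20), Y-Scr 3 (0.18), Y-KO 2 (0.18) or Y-KO 3 (0.16) and with a replicate block (0.20). Creb1, which encodes CREB, was lower at -0.22 ± 0.08 and lost its call without Y-Scr 2 (-0.13) and also without Y-KO 1 (-0.20) or Y-KO 2 (-0.19), or with a replicate block (-0.22). Of 7 tested genes for the turnover of JUN and FOS proteins, Ubr1, a ubiquitin ligase gene, rose by 0.71 ± 0.09 and Det1, a partner of the ligase COP1, fell by 0.33 ± 0.09, and the other 5 did not pass.

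Other immediate early genes fell with the AP-1 members. Of 17 tested, 14 were lower and 0 higher (0 also at an unadjusted p under 0.05), with a median log2 change of -1.23, beside -0.01 for all tested genes. Of all tested genes 23.0% were lower and 20.7% higher. This list too was chosen with earlier results of these data known. Cyr61, a matricellular protein gene, stood at 161.9, 150.0 and 153.0 CPM in Y-Scr against 39.9, 37.7 and 41.9 in Y-KO, a fall of 1.96 ± 0.07 log2 units (SE), with an adjusted p of 3.5e-14 in edgeR's quasi-likelihood test. Zfp36, which encodes an mRNA-decay factor of inflammatory transcripts, fell by 2.38 ± 0.11, the MAP kinase phosphatase gene Dusp1 by 1.87 ± 0.10 and Ier2 by 1.34 ± 0.07. The 3 genes that did not pass, named after their values were seen, were Nr4a1 (0.14 ± 0.13), Nr4a2 (-0.09 ± 0.21) and Arc (0.10 ± 0.17).

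Genes that textbooks list as AP-1 targets were mostly lower as well. Of 30 listed, 24 were tested: 17 were lower, 2 higher and 5 did not pass, with a median log2 change of -0.96. Over all tested genes 23.0% were lower and 20.7% higher, with a median of -0.01. The list was chosen with earlier results of these data known, so it is not independent of them. Ccl2, a monocyte chemokine gene, stood at 944.9, 1063 and 1053 CPM in Y-Scr against 194.5, 193.6 and 196.7 in Y-KO, a fall of 2.39 ± 0.07 log2 units (SE), with an adjusted p of 7.0e-16 in edgeR's quasi-likelihood test. Csf2, the gene of the growth factor GM-CSF, fell by 7.66 ± 0.15, Ptgs2, which encodes the prostaglandin synthase COX-2, by 1.38 ± 0.07, and Phlda1 by 1.60 ± 0.08. The 2 that rose were Hmox1, the heme oxygenase gene (0.48 ± 0.06), and Ccnd1, the cyclin D1 gene (0.24 ± 0.06). Many of these genes are also known targets of NF-kB, and the part of AP-1 in their change was not tested.

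**Figure D4:**
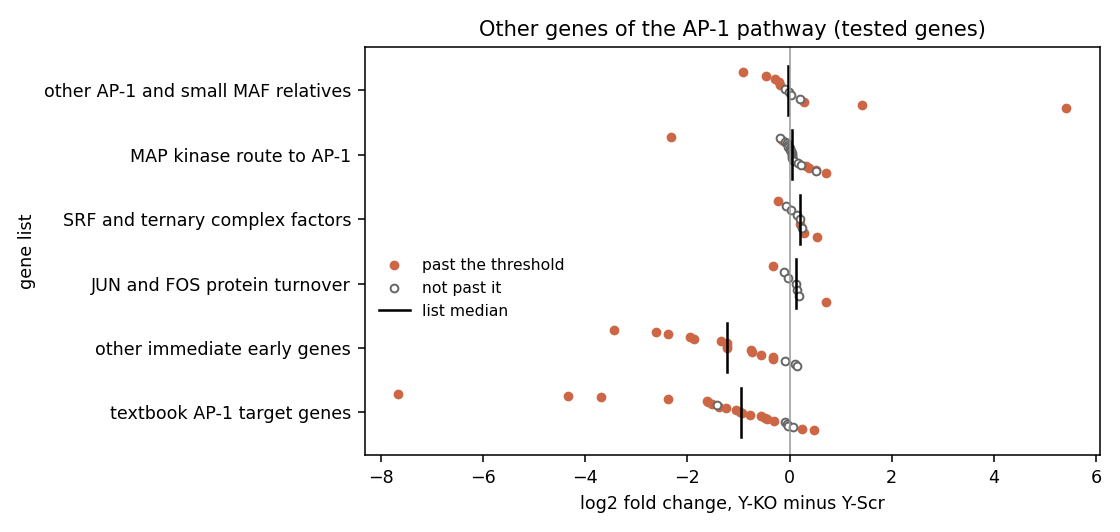
Log2 fold change (Y-KO minus Y-Scr) of each tested gene in 6 lists of AP-1 relatives, upstream genes and targets, with filled points past the threshold, open points not past it and a black line at each list's median. The medians of the immediate early genes (-1.23) and the textbook targets (-0.96) lie left of 0, and those of the other 4 lists between -0.04 and 0.20.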

How the data were processed

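RNA of 6 MB49 libraries, 3 labelled Y-KO and 3 Y-Scr, was compared. The authors deposited whole-number read counts per gene, not normalized, with gene lengths. The submitters' processing notes list Trimmomatic 0.39, the aligner STAR 2.5.2b, the counter featureCounts 1.5.3 and also DESeq2. They name GRCm39 and mm39. The deposited coordinates matched GENCODE M21 (GRCm38) for 98.3% of 54495 shared genes and for 9 of 10 members (Fosl1 differed), so they are given as GRCm38.

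Counts were fitted in edgeR 4.0.16 (R 4.3.3) with TMM scaling, filterByExpr (12907 genes), a robust quasi-likelihood test with no term besides group, and Benjamini-Hochberg adjustment over all tested genes at 0.05. Standard errors and 95% intervals come from that test. TPM was computed from counts and the deposited lengths, without TMM scaling. The test was checked on simulated data.

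Alternatives tried were DESeq2 1.42.0, limma-voom (limma 3.58.1), further scaling factors, other filters, a table of protein-coding genes, a replicate block, single libraries left out, and removal of each library's trend on length and GC content (natural splines, 4 degrees of freedom, GENCODE M21 transcripts). Libraries of a group differed beyond counting noise (chi-square over its degrees of freedom was 3.52 to 16.3). Intervals on counts cover counting error only. The members and lists were chosen with earlier results of these data known. Named genes are the members, all tested relatives and, per other list, up to 4 with the smallest adjusted p in each direction.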

Additional observations from a re-analysis of the deposited data

How the results depend on the processing

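The falls of Jun, Junb, Fos, Fosl1 and Maff passed in all 16 alternatives, at log2 changes of -0.86 to -0.78, -1.82 to -1.69, -2.50 to -2.22, -1.12 to -1.06 and -1.46 to -1.32. Fosb passed in 0 of 16 (-1.03 without Y-KO 2 to -0.13 without Y-KO 3). Fosl2 turned to -0.20 with the length and GC trend removed, and to -0.20 with the replicate block added to that. The replicate block alone left 5 members lower. Same-numbered libraries did not deviate together (correlations of -0.06 to -0.02), so no pairing by number was seen. With 3 libraries per group this cannot show whether they were made in pairs.

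In the lists, lower genes of the MAP kinase route numbered 1 with DESeq2 size factors, upper-quartile factors, all genes unfiltered, the replicate block and with any library left out (1 to 1). Serum response factor list genes higher numbered 1 with the trend removed, with or without the block, and 1 to 4 with a library left out. Those lower numbered 0 with DESeq2 size factors, upper-quartile scaling, the DESeq2 test or the block, where Creb1 stood at -0.22 to -0.21 with adjusted p of 0.0501 to 0.0882. They numbered 2 with the trend removed, with or without the block, and 0 to 1 with a library left out. Turnover genes higher numbered 1 to 3 with a library left out, and those lower 2 with the trend removed, with or without the block. Lower relatives numbered 2 to 5 with a library left out.

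With counts not divided by gene length, Junb held 47.0% of the JUN family in Y-Scr and 30.2% in Y-KO, and Fosl1 60.8% and 42.2% of the FOS family (Fosl2 36.4% and 56.7%). The ratio of the JUN sum to the FOS sum in Y-KO was then 2.13, against 2.75 per length. The cause of the changes between Y-Scr and Y-KO was not tested. Depth limits Fosb, Fos and Batf, and left Atf3 and Batf3 unmeasured.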
